A study of Mus musculus with 4 samples.

Results

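A set of 10 genes of fatty acid transport and fat storage were compared between alveolar macrophages (AMs) of mice with and without a mammary tumor. It held the fatty acid binding proteins Fabp1, Fabp3, Fabp4 and Fabp5, the lipid droplet proteins Cidec, Plin2 and Plin3, the triglyceride lipase Pnpla2, and the triglyceride synthases Dgat1 and Dgat2. Each was taken by its symbol from the count table, which held 54532 genes, and all 10 members were found there. The Control group comprised 2 libraries from mice that received no tumor cells. The Tumor group comprised 2 libraries from mice that had carried 4T1 cells, a mouse mammary carcinoma line, for 2 weeks. All were wild-type females, and the study's methods describe wild-type BALB/c mice of 8 to 10 weeks and injection of 4T1 cells into the mammary fat pad. The labels do not say whether a library came from 1 mouse or from a pool, so p-values measure the spread between these libraries, which may be technical.

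AMs are the resident macrophages of the lung airspace, where they take up and break down surfactant lipid. Fatty acid binding proteins are small cytosolic carriers that bring fatty acids to membranes, enzymes and nuclear receptors. Fatty acids in excess are joined to glycerol as triglyceride, the last step being catalysed by DGAT1 or DGAT2, and stored in lipid droplets coated by perilipins. Stored fat is released by a chain of lipases that starts with ATGL, the product of Pnpla2.

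Total counts per library lay between 16167147 and 19205737. Log2 values of all genes tested correlated at r = 0.994 between the Control libraries and at 0.992 between the Tumor libraries, and at 0.905 across groups. All 13 AM identity genes, among them Siglecf and Marco, were detected, with a summed level of 16451 to 16588 CPM (counts scaled to a common library total) in Control and of 12741 to 12883 CPM in Tumor. Of these 13, 10 were lower and 2 higher in Tumor. Genes of other cells rose in the same libraries. All 11 neutrophil markers were higher (summed level 47.9 to 48.1 CPM in Control and 3822 to 3859 CPM in Tumor). All 5 eosinophil markers were higher (0.480 to 0.506 and 2201 to 2221 CPM), as were 11 of 12 hepatocyte markers (142.0 to 143.2 and 827.7 to 836.2 CPM). Nearly all of the hepatocyte sum in Control was Trf, at a mean of 142.5 CPM, against 128.3 CPM in Tumor. In these bulk libraries, fewer AMs among the cells and less RNA of a gene per AM cannot be told apart.

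Of the 10 members, 9 passed the filter on low counts and 8 differed between groups in edgeR's quasi-likelihood test with Benjamini-Hochberg adjustment over 14256 genes. Fabp1, Fabp4, Fabp5, Cidec and Plin2 were lower in Tumor, and Pnpla2, Dgat1 and Dgat2 were higher. Plin3 did not pass the threshold and Fabp3 was too low to be tested. The background was high, since 53.8% of all genes tested passed the same threshold, 29.0% higher and 24.8% lower in Tumor. The median log2 fold change (Tumor minus Control) was -0.27 over the 9 members tested and 0.02 over all genes tested. The falls were thus among carriers and droplet proteins, and the rises among enzymes. Scaled instead on the 13 AM identity genes, the libraries gave 5 members higher and 3 lower, with the median of all genes at 0.43, so each fold change below is relative to the median gene unless stated.

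**Figure D1:**
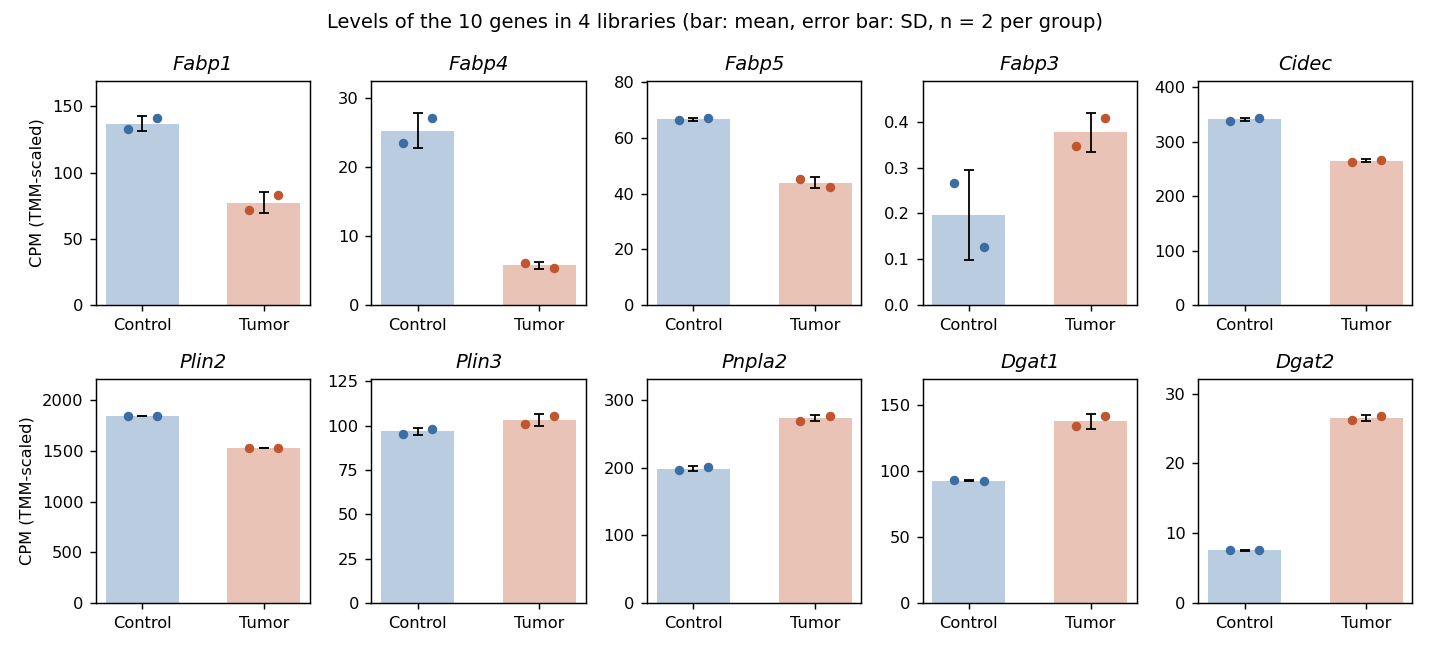
Level of each of the 10 genes in CPM (TMM-scaled), with points for the 2 Control and 2 Tumor libraries, bars for the mean and error bars for the SD; each panel has its own axis from 0. Plin2 at 1528 to 1845 CPM and Fabp3 below 0.41 CPM mark the ends of the range.

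Fabp4, the carrier best known from adipocytes and macrophages and a target gene of PPARγ, fell the most of the members. Its locus on chromosome 3 (ENSMUSG00000062515, 10204088 to 10208576, minus strand, GRCm38) gave 441 and 427 counts in Control and 106 and 107 in Tumor. On the CPM scale the Control libraries held 23.5 and 27.0 and the Tumor libraries 6.11 and 5.45. Both Tumor libraries thus lay far below both Control libraries. Fabp4 was 4.37-fold lower in Tumor, a log2 fold change of -2.13 ± 0.129 (SE; edgeR adjusted p = 3.54e-14; 95% interval -2.39 to -1.86), which ranked 55th from the lowest of 14256 genes. Scaled on the AM identity genes, the log2 fold change was -1.72. Lung endothelial cells, which also express Fabp4, showed 3 of 5 tested markers higher and none lower (summed level 4.94 to 5.91 CPM in Control and 22.4 to 26.6 CPM in Tumor). Most of that sum in Tumor was Pecam1 (2.13 CPM in Control and 18.8 in Tumor), which leukocytes express too, while Cdh5 and Kdr did not pass the threshold. The part of endothelial RNA in the Fabp4 level was not tested.

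Fabp1, the liver-type carrier, is also expressed by mouse AMs. It lies on chromosome 6 (ENSMUSG00000054422, 71199827 to 71205023, plus strand) and had 2494 and 2226 counts in Control and 1242 and 1629 in Tumor. Its levels were 132.9 and 140.9 CPM in Control and 71.6 and 82.9 CPM in Tumor. The Tumor libraries were again both below the Control libraries. The log2 fold change was -0.82 ± 0.0530 (SE; edgeR adjusted p = 1.59e-13), and the level fell by 43.4%. Scaled on the AM identity genes, the log2 fold change was -0.41.

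Fabp1 is also abundant in hepatocytes, whose markers rose in the Tumor libraries. Albumin (Alb) was at 0 counts in each Control library and at 8036 and 9358 counts in Tumor, and Ttr, the thyroxine carrier, was at 0 and 0 against 393 and 418. Of the 12 markers, 11 were at or under the floor of 3 counts in both Control libraries. Fabp1 thus moved in the opposite direction to these liver genes. The part of hepatocyte RNA in the Fabp1 level was not tested.

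**Figure D2:**
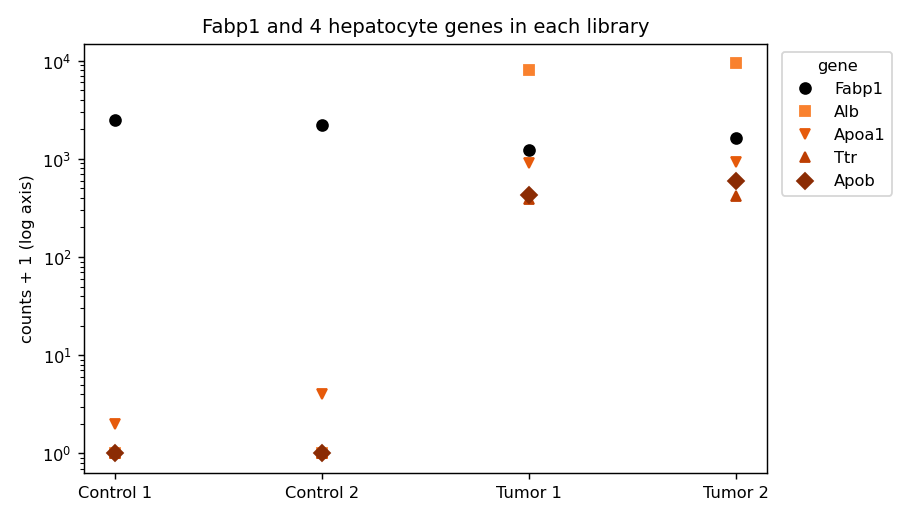
Counts plus 1 (log axis) of Fabp1 and of the hepatocyte genes Alb, Apoa1, Ttr and Apob in each of the 4 libraries, 1 point per gene and library. Fabp1 is highest in the Control libraries, where Alb, Ttr and Apob lie at 0 counts, and all 4 hepatocyte genes are at 393 counts or more in the Tumor libraries.

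Fabp5, the epidermal-type carrier, fell less. Its locus on chromosome 3 (ENSMUSG00000027533, 10012548 to 10016607, plus strand) lies close to Fabp4 and had 1244 and 1059 counts in Control and 788 and 835 in Tumor. In CPM the libraries held 66.3 and 67.0 against 45.4 and 42.5. Groups did not overlap, and the log2 fold change was -0.60 ± 0.0626 (SE; edgeR adjusted p = 3.46e-09). Scaled on the AM identity genes it was -0.19 (edgeR adjusted p = 0.0104). The annotated copies Gm6166 and Gm14328 share 75-base stretches with Fabp5, and counting the 3 together gave -0.61. Of 5 markers of alveolar type 2 cells tested, 3 were lower as well (summed level 219.6 to 220.3 CPM in Control and 190.1 to 195.3 CPM in Tumor, nearly all of it Abca3 at 212.9 and 186.0), but 3 were higher and 0 lower when scaled on the AM identity genes, and their part in the Fabp5 level was not tested.

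Fabp3, the heart-type carrier, was close to the floor in every library. Its locus on chromosome 4 (ENSMUSG00000028773, 130308595 to 130315463, plus strand) had 5 and 2 counts in Control and 6 and 8 in Tumor. The exact 95% Poisson intervals of these counts, which cover counting error only, ran from 0.242 to 11.7 in Control and from 2.20 to 15.8 in Tumor. A difference was therefore not detectable at this depth, and without the filter the log2 fold change was 0.87 ± 0.913 (SE; edgeR adjusted p = 0.561). Of its 75-base stretches 24.3% are shared with the pseudogene Fabp3-ps1, and 81 of its bases overlap Zcchc17 on the opposite strand. None of the 9 muscle markers passed the filter.

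Other members of the family were lower still. None of 11 relatives passed the filter, and only Fabp2 and Fabp7 exceeded 3 counts in any library. Fabp2, the intestinal carrier, was at 0 counts in Control and at 11 and 8 in Tumor. Among the other enterocyte markers, Sis and Alpi were at 0 counts in every library, and Apoa4, which liver expresses too, was at 0 in Control and at 40 and 52 counts in Tumor. Vil1 had 5 and 6 counts in Control and 9 and 14 in Tumor, and Lct 5 and 0 against 0 and 1. The part of other cells in the Fabp2 counts was not tested. Fabp7, the brain-type carrier, had 6 and 3 counts in Control and 6 and 11 in Tumor.

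Within a library the ratio of 2 genes does not depend on scaling. The log2 ratio of Fabp4 to Fabp5 was -1.49 and -1.31 in Control and -2.87 and -2.94 in Tumor. The log2 ratio of Fabp1 to Fabp4 was 2.49 and 2.38 in Control and 3.53 and 3.90 in Tumor. Fabp4 therefore fell relative to both other carriers, by 1.51 and 1.28 log2 units.

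Plin2, the coat protein found on droplets of most cells, had the highest level of the members. Its locus on chromosome 4 (ENSMUSG00000028494, 86648386 to 86670060, minus strand) had 34627 and 29127 counts in Control and 26548 and 30027 in Tumor. Scaled, the libraries held 1845 and 1843 CPM in Control and 1531 and 1528 CPM in Tumor. The 2 libraries of a group lay within 3 CPM of each other, and the groups were apart. The log2 fold change was -0.27 ± 0.0176 (SE; edgeR adjusted p = 1.94e-13), and the level fell by 17.0%, but scaled on the AM identity genes it turned to 0.14 (edgeR adjusted p = 9.77e-06), so its direction depends on the reference chosen.

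Cidec, which drives the fusion and growth of droplets, was also lower in Tumor. On chromosome 6 (ENSMUSG00000030278, 113424634 to 113435760, minus strand), it had 6354 and 5413 counts in Control and 4558 and 5242 in Tumor. Its levels were 338.5 and 342.5 CPM in Control and 262.9 and 266.8 CPM in Tumor. The log2 fold change was -0.36 ± 0.0289 (SE; edgeR adjusted p = 1.49e-11). Scaled on the AM identity genes it was 0.05 (edgeR adjusted p = 0.217), so this fall was lost. The log2 ratio of Cidec to Plin2 was -2.45 and -2.43 in Control and -2.54 and -2.52 in Tumor, a shift of -0.09.

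Plin3, the perilipin that also circulates in the cytosol, showed the smallest difference of the members tested. On chromosome 17 (ENSMUSG00000024197, 56277476 to 56292873, minus strand), it had 1790 and 1552 counts in Control and 1749 and 2069 in Tumor. Levels were 95.4 and 98.2 CPM in Control and 100.9 and 105.3 CPM in Tumor. The log2 fold change was 0.09 ± 0.0457 (SE; edgeR adjusted p = 0.0906), with a 95% interval of -0.00132 to 0.19. Without TMM factors it was 0.16 and passed the threshold (edgeR adjusted p = 0.00448). The log2 ratio of Plin2 to Plin3 was 4.27 and 4.23 in Control and 3.92 and 3.86 in Tumor.

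Pnpla2 encodes ATGL, which takes the first fatty acid off stored triglyceride. Its locus on chromosome 7 (ENSMUSG00000025509, 141455198 to 141460743, plus strand) had 3684 and 3185 counts in Control and 4683 and 5436 in Tumor. Levels were 196.3 and 201.5 CPM in Control and 270.1 and 276.7 CPM in Tumor, with no overlap. It was 1.38-fold higher in Tumor, a log2 fold change of 0.46 ± 0.0321 (SE; edgeR adjusted p = 8.71e-13). With the AM identity genes as the reference, the log2 fold change was 0.87. Relative to Plin2 within a library, the log2 ratio rose from -3.23 and -3.19 to -2.50 and -2.47. The part of other cells in the Pnpla2 rise was not tested.

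Dgat1 and Dgat2 encode unrelated enzymes for the last step of triglyceride synthesis. Dgat1 on chromosome 15 (ENSMUSG00000022555, 76502015 to 76511953, minus strand) had 1746 and 1459 counts in Control and 2319 and 2782 in Tumor, or 93.0 and 92.3 against 133.7 and 141.6 CPM. It was 1.49-fold higher in Tumor (log2 fold change 0.57 ± 0.0437, SE; edgeR adjusted p = 6.02e-12). Both Tumor libraries exceeded both Control libraries for this gene. With the AM identity genes as the reference, the log2 fold change of Dgat1 was 0.98. The part of other cells in its rise was not tested.

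Dgat2 on chromosome 7 (ENSMUSG00000030747, 99153658 to 99182719, minus strand) rose the most of the members. It had 141 and 120 counts in Control and 455 and 526 in Tumor, that is, 7.51 and 7.59 against 26.2 and 26.8 CPM. It was 3.51-fold higher in Tumor (log2 fold change 1.81 ± 0.114, SE; edgeR adjusted p = 8.85e-14), ranking 1242nd from the highest of all genes tested. Dgat1 counts were 12.38 and 12.16 times those of Dgat2 in the Control libraries and 5.10 and 5.29 times in the Tumor libraries, so Dgat1 stayed ahead while the gap narrowed. Liver and fat express Dgat2 too, and the hepatocyte markers rose in the same libraries, but their part in its rise was not tested.

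**Figure D3:**
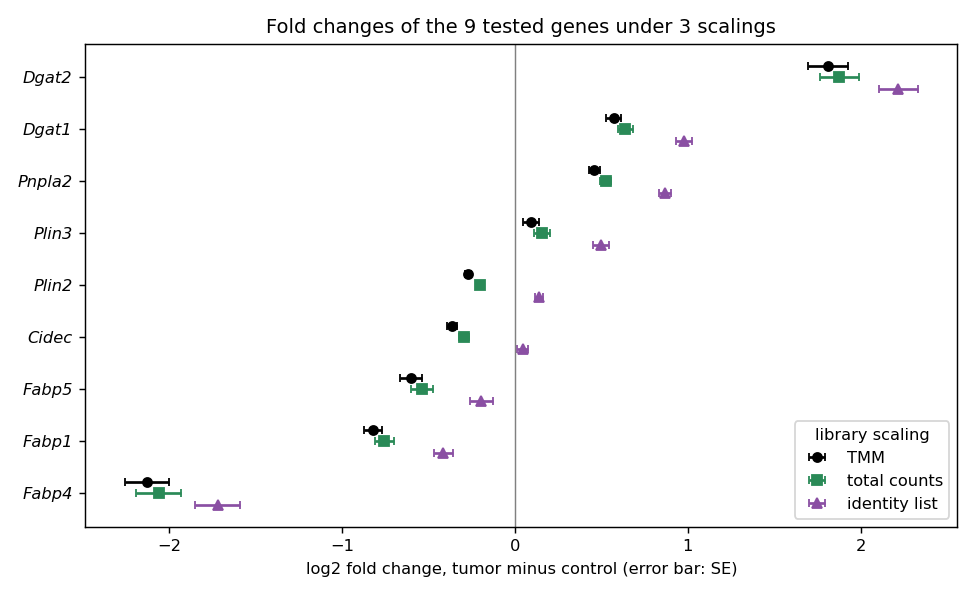
Log2 fold change (Tumor minus Control) of the 9 members tested, with error bars for the SE. Each gene has a point for each library scaling: TMM, total counts or the AM identity genes. With TMM, Fabp4 at -2.13 and Dgat2 at 1.81 lie at the ends, and the SE bar of Plin3 (0.09 ± 0.0457) stays above 0.

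**Figure D4:**
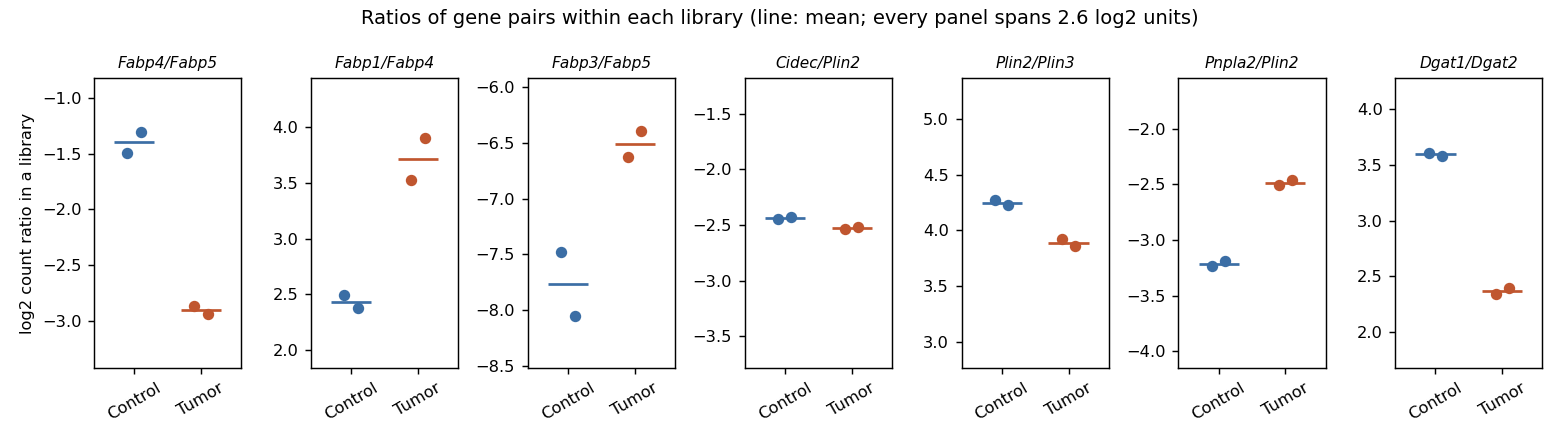
Log2 ratio of 2 members within a library, 1 point per library, for 7 pairs in Control and Tumor. The shifts from Control to Tumor were -1.51 for Fabp4 to Fabp5 and 1.28 for Fabp1 to Fabp4. The shift of Fabp3 to Fabp5 rests on few counts and was 1.257 with a prior count of 2 and 1.504 with 0.5.

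Per kilobase of gene length, levels of the members could be set in order. In Control the mean was 525.1 CPM per kb for Plin2, 247.5 for Fabp1, 183.5 for Cidec, 65.9 for Pnpla2, 30.3 for Dgat1, 25.6 for Plin3, 18.7 for Fabp5, 5.63 for Fabp4, 2.45 for Dgat2 and 0.239 for Fabp3. In Tumor the top 3 were Plin2 at 435.6, Cidec at 142.7 and Fabp1 at 139.7 CPM per kb, and the last pair overlapped. Dgat2 at 8.60 CPM per kb stood above Fabp4 at 1.29, whereas with the median transcript length it did so in Control already (10.7 against 9.85). These orders rest on the deposited gene lengths, which for Fabp4 and Fabp5 (4489 and 3567 bases) are far longer than their longest coding transcripts (896 and 987 bases).

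Upstream sequences from RefSeq (GRCm38.p6) were at hand for 6 of the 10 members. Shown are those of 2 members that fell and 1 that rose, read 5′ to 3′ along the gene's own strand and ending at its 5′ end for Fabp1 and Plin2 and 10 bases short of it for Pnpla2, from Fabp1 at chr6:71199629-71199826 (plus), Plin2 at chr4:86670061-86670309 (minus) and Pnpla2 at chr7:141454938-141455187 (plus). Capitals mark matches, on either strand, to AGGTCA (the nuclear receptor half-site), GCGTG (the core bound by AHR with its partner), TTGCNNAA (C/EBP) or TGANTCA (AP-1, a palindrome).
Fabp1: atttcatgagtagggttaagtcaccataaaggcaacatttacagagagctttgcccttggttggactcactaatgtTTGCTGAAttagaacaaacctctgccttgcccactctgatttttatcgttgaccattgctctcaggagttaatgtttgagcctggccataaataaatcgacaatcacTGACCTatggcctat
Plin2: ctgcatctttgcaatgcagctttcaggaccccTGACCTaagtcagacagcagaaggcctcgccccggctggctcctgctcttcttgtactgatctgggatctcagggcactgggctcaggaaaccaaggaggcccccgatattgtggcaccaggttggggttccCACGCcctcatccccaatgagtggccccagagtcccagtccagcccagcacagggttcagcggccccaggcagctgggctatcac
Pnpla2: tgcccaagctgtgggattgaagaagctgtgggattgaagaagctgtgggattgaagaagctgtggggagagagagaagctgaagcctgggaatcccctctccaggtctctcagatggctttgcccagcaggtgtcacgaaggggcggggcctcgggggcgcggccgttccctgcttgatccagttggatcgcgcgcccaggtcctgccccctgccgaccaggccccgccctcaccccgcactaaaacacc

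In the 250 bases before the RefSeq start, Fabp1 held AGGTCA on the minus strand 67 and 9 bases before the start, the nearer one outside the stretch shown, and TTGCNNAA 174 bases before it. Plin2 held AGGTCA on the minus strand at 218 bases and GCGTG on the minus strand at 86 bases. Pnpla2 held none of these letters. AGGTCA was present in 14.03% of 32841 RefSeq promoters, GCGTG in 28.2%, TTGCNNAA in 9.57% and TGANTCA in 6.75%. The direct repeat of the half-site spaced by 1 base was present in 0.0335% and in none of the members searched. Fabp3, Plin3 and the first Cidec promoter held no match, and the second Cidec promoter held GCGTG, TTGCNNAA and TGANTCA. These matches are a description of letters and not of binding.

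Other genes of lipid storage were described by 8 lists. Of 90 genes in the table, 68 passed the filter, and 24 were higher and 29 lower in Tumor, which is 77.9% of those tested against 53.8% of all genes. The median log2 fold change was -0.09 over the 68. Scaled on the AM identity genes the lists gave 48 higher and 7 lower, so single falls of small size depend on the reference.

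Among lipolysis genes, 4 were higher, 5 lower and 1 not called of 10 tested (median log2 fold change -0.23). G0s2, the inhibitor of ATGL, had 47 and 19 counts in Control and 1147 and 1406 in Tumor, a log2 fold change of 5.17 ± 0.138 (SE; edgeR adjusted p = 2.20e-22). Lipe, the hormone-sensitive lipase, had 101 and 78 counts in Control and 345 and 367 in Tumor (log2 fold change 1.90). Abhd5, the activator of ATGL, was lower at a log2 fold change of -0.25, which turned to 0.16 when scaled on the AM identity genes. Mgll, which takes off the last fatty acid, fell from 262.5 to 192.4 CPM (log2 fold change -0.45), while its value was -0.04 under that scaling. Lipa, the lysosomal acid lipase, was lower at a log2 fold change of -0.48, and at -0.08 under that scaling. Abhd6 was lower at -0.58 and did not pass the threshold under it (-0.17; edgeR adjusted p = 0.283). Neutrophil markers moved with G0s2, and their part in its rise was not tested.

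Adipocyte markers bear on Lipe and Plin1, which that list holds too. Of its 9 genes, Adipoq and Lep had 0 counts in every library, and 7 were too low to test. The summed level was 7.66 to 8.42 CPM in Control and 20.6 to 22.8 CPM in Tumor, of which Lipe itself made up 5.16 and 19.3 CPM in the mean, so the sum holds little beside Lipe and Plin1. Plin1, the adipocyte perilipin, had 53 and 38 counts in Control and 35 and 18 in Tumor, a log2 fold change of -0.86 (edgeR adjusted p = 0.0296), which missed the threshold when scaled on the AM identity genes (edgeR adjusted p = 0.232). The part of adipocyte RNA in either gene was not tested.

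Of the other droplet coat and CIDE genes, Plin5, the perilipin of oxidative tissues, was at 0 counts in Control and at 17 and 19 in Tumor, at least 5.09-fold higher against the floor. Cideb, which is best known from liver and gut, did not pass the threshold (45 and 45 counts against 44 and 59). Plin4 had 2 and 3 counts in Control and 2 and 18 in Tumor, and Cidea 0 and 1 against 1 and 0, both too low to test.

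Among 12 droplet assembly genes tested, 2 were higher, 2 lower and 8 not called. Hilpda, a small protein that inhibits ATGL and is induced by hypoxia and fatty acids, had 3345 and 2939 counts in Control and 1299 and 1520 in Tumor (log2 fold change -1.26 ± 0.0423, SE; edgeR adjusted p = 5.23e-20). The 2 ATGL inhibitors, Hilpda and G0s2, therefore moved in opposite directions. Mospd2, which tethers membranes to droplets, was lower at -0.58. Hsd17b11, a droplet-associated dehydrogenase, was higher at 0.19.

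Among triglyceride synthesis genes other than the members, 3 were higher, 6 lower and 2 not called of 11 tested (median log2 fold change -0.18). Agpat2 and Agpat5 were higher at 0.60 and 0.41. Agpat4, Agpat3 and Gpat3 were lower at -0.48, -0.36 and -0.27 and did not pass the threshold when scaled on the AM identity genes. Under that scaling 8 genes of the list were higher and 0 lower (median log2 fold change 0.22), so the split between directions depends on the reference.

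Of 4 cholesterol ester genes, Soat2, the esterifying enzyme of liver and gut, had 12 and 18 counts in Control and 185 and 193 in Tumor (log2 fold change 3.55 ± 0.244, SE; edgeR adjusted p = 6.57e-13). Soat1, the form typical of macrophages, was lower at -0.09 and higher at 0.32 when scaled on the AM identity genes. Nceh1, a cholesterol ester hydrolase of macrophages, was lower at -0.58.

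Of 14 uptake and activation genes tested, 5 were higher, 7 lower and 2 not called. Lpl, the lipase that frees fatty acids from lipoproteins, fell from 3298 to 1549 CPM (log2 fold change -1.09 ± 0.0173, SE; edgeR adjusted p = 1.23e-27). Acsl4, which activates long polyunsaturated fatty acids, was lower at -0.92, and Cd36, the scavenger receptor for fatty acids, at -0.45, which was -0.04 when scaled on the AM identity genes. Slc27a4, a fatty acid transport protein, rose from 30.1 to 145.5 CPM (log2 fold change 2.26). Slc27a2 and Slc27a5, the forms typical of liver, were at least 57.4-fold and 23.7-fold higher against the floor in the libraries where hepatocyte markers rose, and the part of hepatocyte RNA in this was not tested.

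Of 14 nuclear receptors and regulators tested, 8 were higher and 6 lower (median log2 fold change 0.29). Pparg, the receptor that drives fat storage genes in AMs, had 4253 and 3473 counts in Control and 3374 and 3722 in Tumor (log2 fold change -0.22; 0.19 when scaled on the AM identity genes). Nr1h3, the oxysterol receptor LXRα, was lower at -0.60 and missed the threshold when scaled on the AM identity genes (edgeR adjusted p = 0.0524). Ppargc1b, Nr1h2 and Rxrb were higher at 0.57, 0.41 and 0.37.

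**Figure D5:**
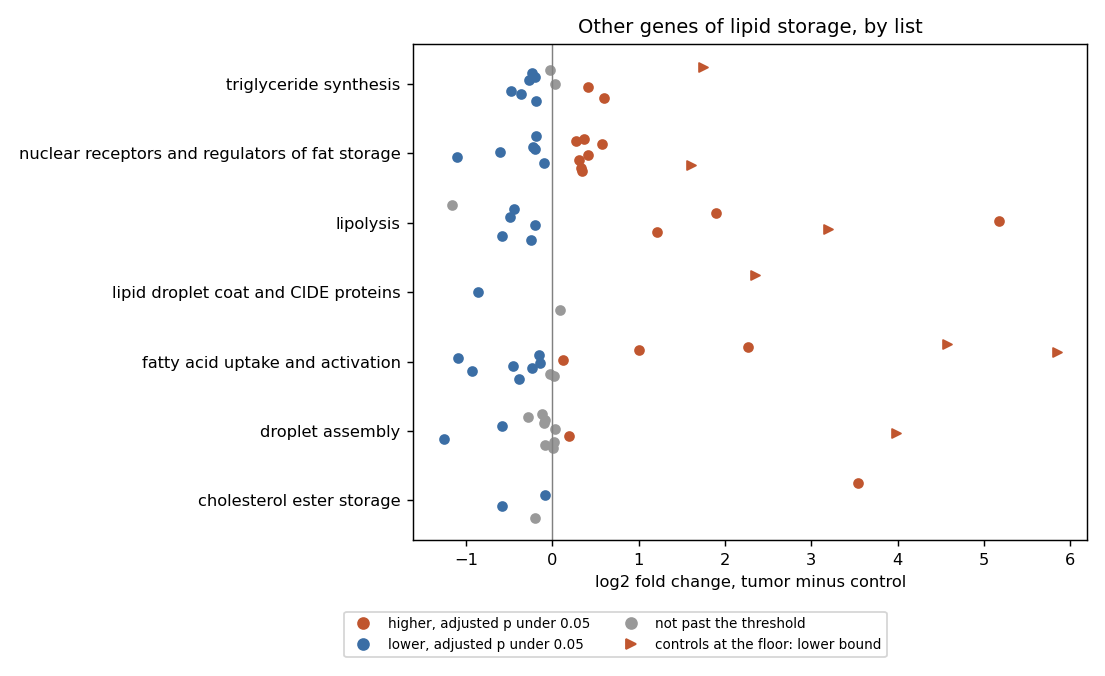
Log2 fold change (Tumor minus Control) of each tested gene of 7 lists, with triangles at the lower bound for genes whose Control libraries were both at the floor. Most genes lie between -1 and 1, and G0s2 at 5.17 lies farthest right of the genes measured in both groups.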

How the data were processed

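RNA-seq was made with TRIzol and a NEBNext Ultra kit from AMs that the study's methods describe as purified. Per the study's methods and the submitters' processing notes, reads were aligned with HISAT2 2.0.5 and counted with featureCounts; strandedness, multiple matches, build and annotation are not given in the sources used here. The deposited values are raw counts per gene, not normalized by the authors, and their FPKM values were not used. Coordinates of all 10 members were identical in GENCODE M21 (GRCm38).

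Counts of 4 libraries (16167147 to 19205737, with intervals covering counting error only) were analysed with edgeR 4.0.16 in R 4.3.3: filterByExpr (minimum count 10), TMM, the quasi-likelihood fit with a term for group alone (2 residual degrees of freedom), and Benjamini-Hochberg adjustment at 0.05. SE is the log2 fold change over the square root of F. CPM used TMM-scaled library sizes, log2 ratios a prior count of 2, and the floor was 3 counts. The fit was first tested on simulated data. Values with SE come from 2 libraries per group, for which no permutation of groups can reach the threshold.

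The members, lists and alternatives were chosen with earlier results of these data known. Named were all members, partners of ATGL and the droplet coat, family genes over 3 counts, and for each list the 3 largest called rises and falls whose mean reached 100 counts in one group; 1 gene that this rule names is not reported here. Of 191 list names, 2 were not found. Alternatives used DESeq2 1.42.0, limma 3.58.1 (voom), other scalings, filters and thresholds, a replicate block, and each library left out; counting Fabp5 with its copies and coding transcript lengths were chosen after seeing the data.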

Additional observations from a re-analysis of the deposited data

How the results depend on the processing

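Fabp1, Fabp4, Fabp5, Pnpla2, Dgat1 and Dgat2 kept their direction and passed the threshold of 0.05 under each of 12 alternative fits (scaling, filter, tool, replicate block or a library left out). Plin3 passed it under 3, at 0.16 with total counts, 0.50 with the AM identity genes and 0.12 with at least 10 counts in every library. Scaling on the AM identity genes turned Plin2 to 0.14 and Cidec to 0.0454 and gave 5 members higher and 3 lower, against 3 and 5. The share of higher genes among all calls was 90.4% under it and 53.9% with TMM; it was 62.6% when libraries were scaled on their total counts alone. With a log2 fold change of at least 1 required, 2 members were called, 1 higher and 1 lower, and 16 pathway genes against 53, since the rule itself removes small changes. Leaving out 1 library at a time, where the lone library was assumed to vary like the other group, gave 8 members each time and 44 to 54 pathway genes. Same-numbered libraries did not deviate together (correlation of deviations -0.00278 over 2 pairs); with the replicate number as a block, 8 members and 52 pathway genes were called and no member's call changed. The depth limits Fabp3 and its relatives, whose counts lie near the floor.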

Other observations

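Gene length decides part of the order of levels. With the longest coding transcript in place of the deposited length, Fabp5 stood at 67.5 CPM per kb in Control and 44.6 in Tumor, and Fabp4 at 28.2 and 6.45. Fabp5 then ranked above Dgat1 in Control and Fabp4 overlapped Plin3 there, while Plin2 stayed first in both groups, at 976.7 and 810.2 CPM per kb. In Tumor, Dgat2 at 11.7 CPM per kb again stood above Fabp4. With the median transcript length, Cidec stood above Fabp1 in Control (273.7 and 247.5 CPM per kb) and Dgat2 above Fabp5 in Tumor (37.4 and 20.8), while Plin2 was first in both groups.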
